A study of Mus musculus with 3 samples.

Results

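Heat shock proteins, chaperonins and co-chaperones are the genes that carry protein folding in the cytosol, the endoplasmic reticulum (ER) and the mitochondrion. They were taken from the gene symbols of the array's probe annotation. The symbols used were those of the HSP70 and HSP110 genes (Hspa, Hsph1), HSP90 (Hsp90) and the mitochondrial chaperonin (Hspd1, Hspe1). The small heat shock proteins and other genes with the same prefix (Hspb) were included. So were the cytosolic chaperonin (Tcp1, Cct), the J-domain co-chaperones (Dnaja, Dnajb, Dnajc) and the BAG genes. The rule gave 60 of the 9678 genes with a named probe, on 80 probes, and each gene is described by its probe with the highest mean. RefSeq lists 90 protein-coding mouse genes under the same symbols, and the other 30 had no named probe among those used here. Among those 30 were Hspa5 (BiP, the HSP70 of the ER), Hsp90ab1 (constitutive cytosolic HSP90), Cct5 and Cct7. The main ER HSP70 and part of the cytosolic chaperonin are therefore not described. Lack of a named probe does not tell an undetected gene from an unmeasured one.

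RNA came from OS25, an embryonic stem (ES) cell line of the mouse, in 3 biological replicates that the labels put in 1 group, undifferentiated ES cells, each hybridised to 1 Illumina BeadArray. The cells grew in Glasgow minimal essential medium with serum at 10%, LIF (the cytokine that holds mouse ES cells undifferentiated) at 1000 units/mL, hygromycin, penicillin, streptomycin and β-mercaptoethanol. The arrays belong to a study of histone H4K16 acetylation in this line. The labels name no second group, heat shock or other stressor, so the values below are levels and the spread between replicates, with no test. In these bulk samples, fewer cells expressing a gene and less RNA per cell cannot be told apart.

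The arrays had median intensities of 80.7, 79.8 and 74.9 (replicates 1, 2 and 3), and 15865, 15206 and 14515 of 45281 probes had a detection p, the array's own comparison of a probe with its negative control beads, under 0.01. Replicates 2 and 3 lay closest together: the median absolute difference of the 50 detected members was 0.124 log2 units, against 0.136 over all detected genes. For the members it was 0.297 between replicates 1 and 2 and 0.329 between replicates 1 and 3, against 0.314 and 0.327 over all detected genes. The label was checked against marker genes. Of 16 ES cell markers, 8 had a named probe and 5 were detected on all 3 arrays (Klf2, Klf4, Klf5, Tbx3 and Lefty1). Of those 5, 3 were lowest and 1 was highest on replicate 1. Klf4 was at 6.48, 8.08 and 7.86 log2 units on replicates 1, 2 and 3. Klf5 was at 8.59, 9.92 and 9.70, and both had a range over 1. Zfp42 and Fbxo15 were detected on replicate 1 alone, and Tfcp2l1 was detected on no array. Pou5f1, Nanog and Sox2 had no named probe used here. Of the 27527 probes outside the table processed by the authors, 0 had a detection p under 0.01 on any array. A gene with no named probe may therefore be undetected, lack a probe or sit on a probe without a single gene name. Of 18 fibroblast markers, 15 had a named probe and 13 were detected on all 3 arrays. Of those 13, 7 differed by over 1 log2 unit between arrays. Vim, at 12.19, 13.43 and 13.40, and Fbln2, at 11.65, 13.64 and 13.38, had the highest means and were lowest on replicate 1. Pdgfra, a PDGF receptor chain of fibroblasts, was at 9.59, 6.07 and 5.84 log2 units on replicates 1, 2 and 3, and Thy1, a fibroblast surface protein, was at 6.81, 9.85 and 9.49. Dcn (decorin, a matrix proteoglycan) moved most, at 12.28, 6.77 and 5.42, and was not above background on replicate 3. The mean log2 level of all 15 measured fibroblast markers was 9.66, 9.41 and 9.13, and that of the 13 detected on every array, which leaves out Dcn, was 9.76, 9.91 and 9.71. The 3 measured epithelial markers were all above background on replicate 1, 1 of them on replicate 2 and 0 on replicate 3. Krt14, a basal keratin, was at 7.59 on replicate 1, Cdh1, the epithelial cadherin, at 6.46 and Krt8, a keratin of simple epithelia, at 6.28. The part of such cells in the values below was not tested.

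Chaperones of the HSP70 class bind short exposed stretches of unfolded proteins and release them on exchange of ADP for ATP. J-domain proteins start the cycle by bringing a substrate and stimulating ATP hydrolysis, and nucleotide exchange factors (the BAG proteins, HSPBP1 and the HSP110 class) end it. HSP90 and the ring-shaped chaperonins take over partly folded proteins, while small heat shock proteins hold unfolded ones without ATP. Many of the cytosolic genes are controlled by heat shock factor 1 (HSF1), which binds alternating units of GAA and TTC, and many ER genes by the unfolded protein response, whose factors bind the ER stress element. Human ES cells are known for high levels of the cytosolic chaperonin.

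Promoter sequences are shown first, with the elements that HSF1 and the unfolded protein response are known to use. RefSeq promoter windows (assembly GRCm38.p6, 250 bases before to 50 after each listed start) were found for 48 of the 60 genes, in 60 windows. A 2-unit heat shock element was searched as GAANNTTC or TTCNNGAA, each of which reads the same on both strands. A 3-unit element was 3 alternating units of GAA and TTC with 2 bases between units, searched on both strands, and always contains 2-unit elements. The ER stress element was CCAAT, 9 bases and CCACG, on either strand. Sequences run 5′ to 3′ on the strand of the gene, and capitals mark the elements. Hspb1 is shown because it had the widest spread between arrays; its window holds a pair of 2-unit elements that start at positions -117 and -97 from the listed start. Hspa1a is shown as the classic stress-inducible HSP70 gene, with 1 such element at -104. Hsp90b1, the ER HSP90, is shown for its 2 copies of the ER stress element at -212 and -107.
Hspb1 (chr5:135887669-135887918, plus strand): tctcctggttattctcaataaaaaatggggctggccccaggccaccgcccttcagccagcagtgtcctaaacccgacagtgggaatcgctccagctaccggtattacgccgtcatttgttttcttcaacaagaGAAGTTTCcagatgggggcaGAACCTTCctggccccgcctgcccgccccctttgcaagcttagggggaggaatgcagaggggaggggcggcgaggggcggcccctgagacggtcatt
Hspa1a (chr17:34972157-34972406, minus strand): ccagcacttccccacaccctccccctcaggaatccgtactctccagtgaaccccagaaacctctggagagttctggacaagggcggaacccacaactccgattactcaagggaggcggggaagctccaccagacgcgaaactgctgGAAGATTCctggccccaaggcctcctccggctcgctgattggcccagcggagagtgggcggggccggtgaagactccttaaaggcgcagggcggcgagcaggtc
Hsp90b1 (chr10:86705445-86705694, minus strand): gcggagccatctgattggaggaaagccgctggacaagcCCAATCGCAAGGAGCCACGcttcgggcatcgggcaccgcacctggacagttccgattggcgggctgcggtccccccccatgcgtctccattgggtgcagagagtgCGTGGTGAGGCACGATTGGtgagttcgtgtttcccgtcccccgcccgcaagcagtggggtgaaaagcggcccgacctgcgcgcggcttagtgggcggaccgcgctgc

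The genes of the mitochondrial chaperonin, Hspe1 and Hspd1, stand head to head. Of the 2 listed Hspd1 starts, 1 lies upstream of the Hspe1 start, and the 215 bases between them are printed; the other lies past the Hspe1 start, and its own window held no heat shock element. The printed bases hold 4 alternating units in a row, which count as 2 overlapping 3-unit elements. The first of these lay at -89 from the Hspe1 start. Hsph1, an HSP110 gene, has its 3-unit element just after the start, at position 16 from the start used here, and the 25 bases around it are printed.
Hspe1 to Hspd1 (chr1:55087933-55088147, plus strand, read towards Hspe1): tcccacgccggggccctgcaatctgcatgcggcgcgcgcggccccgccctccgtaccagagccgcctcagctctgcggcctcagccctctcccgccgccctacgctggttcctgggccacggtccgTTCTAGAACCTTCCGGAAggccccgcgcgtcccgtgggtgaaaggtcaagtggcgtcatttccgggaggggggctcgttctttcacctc
Hsph1 element (chr5:149636282-149636306, minus strand): tgcagaTTCTGGAAAGTTCtcctca

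A 2-unit element was present in the promoters of 15 of the 48 genes (31.2%), against 13.6% of the 7869 genes with both a named probe and a listed promoter and 17.0% of all 27025 genes in the promoter table. Counted by window, it was in 17 of the 60 chaperone windows (28.3%) and in 15.1% of all 32851 windows. The 15 genes were Hspa1a, Hspa1b, Hsph1, Hspb1, Hspb6, Hspb8, Hspd1, Hspe1, Cct2, Cct6a, Dnaja1, Dnajb6, Dnajc10, Dnajc27 and Bag3. Among textbook HSF1 targets with a listed promoter, 9 of 10 held it (90%), against 6 of the 38 other chaperone genes (15.8%), a share near that of all genes. That list was written from general knowledge of HSF1 targets, so its share describes the list and is not independent of it. The exception was Dnajb1, whose window held no match for these letters. The 3-unit element was in 4 of the 48 genes (8.33%: Hspd1, Hspe1, Hsph1 and Dnajb6), against 0.662% of all genes in the table. Hspd1 and Hspe1 share the same units between their starts, which are counted for both genes here and in the 2-unit share. The ER stress element was in 2 of the 48, Hsp90b1 and Dnajc3 (at -105), against 0.137% of all genes. The 250 bases before Hspa1a and Hspa1b, neighbouring copies of the inducible HSP70 gene, were identical at 247 positions (98.8%). Their 2-unit elements are therefore not independent entries in the share above. Promoters of Bag4, Cct4, Dnajc11, Dnajc12, Dnajc18, Dnajc2, Dnajc30, Dnajc5, Hsp90aa1, Hspa8, Hspa9 and Hspb2 were not listed.

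**Figure D1:**
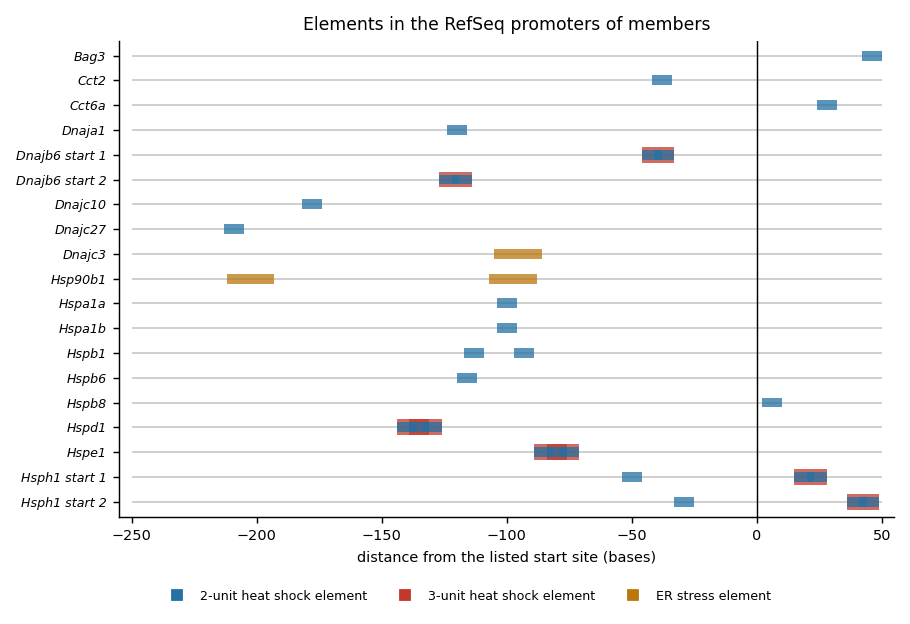
Elements found in the RefSeq promoter windows of chaperone genes, drawn to scale along the distance from the listed start site in bases (horizontal axis), with 1 row per window that holds any. Blue boxes are 2-unit and red boxes 3-unit heat shock elements, orange boxes are ER stress elements. Most heat shock elements lie within 150 bases before the start, while those of Dnajc10 and Dnajc27 lie farther upstream and those of Cct6a, Bag3 and Hspb8 and the 3-unit element of Hsph1 lie after it.

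Of the 60 genes, 50 were detected on all 3 arrays, that is with a detection p under 0.01 on each (83.3%, against 82.1% of all 9678 genes with a named probe). The table of named probes was itself built mostly from detected probes, so a share near 82.1% says nothing particular about chaperones. The detection p was 0 on every array for 48 of the 60. Values below are log2 intensities after background correction and quantile normalisation, in the order replicate 1, 2 and 3, and each gene is compared only with itself across arrays, since probes differ in their brightness per transcript. Which array is highest for a gene depends on normalisation between arrays: without it, 34 of the 50 detected genes were highest on replicate 1, against 71.8% of all detected genes, and the order of ranges between genes changed too.

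**Figure D2:**
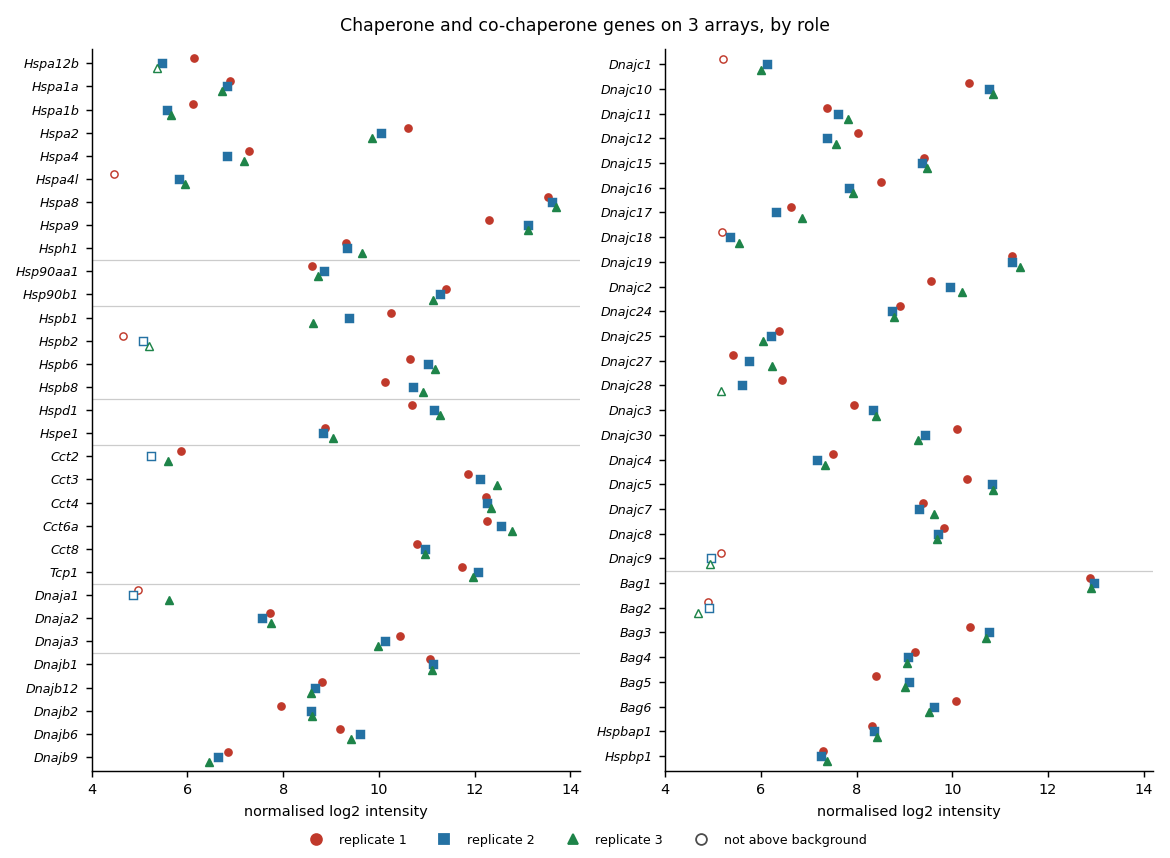
Log2 normalised intensity (horizontal axis) of the 60 genes on replicates 1 (circles), 2 (squares) and 3 (triangles), grouped by role with grey lines between groups. Open symbols mark a value not above background on that array; only Hspb1 among the detected genes spans over 1 log2 unit, from 10.26 on replicate 1 to 8.63 on replicate 3.

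The mitochondrial HSP70 was lower on replicate 1 than on the other arrays on both of its probes, while probes of the constitutive cytosolic HSP70 differed in their order. Hspa8 (HSC70, the housekeeping HSP70 that also uncoats clathrin vesicles) was at 13.54, 13.61 and 13.71, a mean of 13.62 ± 0.09 (SD, n = 3). Its other probes had wider ranges: one, at 11.86, 11.31 and 11.24, was highest on replicate 1, and the other was at 12.42, 12.21 and 12.53. Hspa9 (mortalin, the HSP70 that pulls proteins into the mitochondrial matrix) was at 12.30, 13.12 and 13.12, a mean of 12.85 ± 0.47 (SD, n = 3), and its range of 0.82 was the widest of the 7 detected HSP70 genes. The second Hspa9 probe had the same order, at 10.81, 11.74 and 11.91. Replicates 2 and 3 coincided on the main probe, and replicate 1 stood apart on both. Without normalisation between arrays, Hspa9 was still lowest on replicate 1, at 12.48, 13.11 and 12.98.

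The stress-inducible HSP70 genes were detected in cultures for which the labels name no stressor. Hspa1a was at 6.90, 6.83 and 6.72, a mean of 6.81 ± 0.09 (SD, n = 3), while a second probe of the gene was not above background on any array. Hspa1b was at 6.13, 5.56 and 5.65, with detection p of 0, 0.00427 and 0.00641, so it passed the threshold narrowly on replicates 2 and 3. Because the pair encodes nearly identical transcripts, a probe of either gene may also bind the other, and their values are not separable here. Hspa2, an HSP70 known from male germ cells in the mouse, was detected with a range of 0.77 and was highest on replicate 1, as on its second probe with a range of 0.71. The HSP110 class, which exchanges nucleotide on HSP70, was represented by Hsph1 at 9.31, 9.33 and 9.65 and by Hspa4 with a range of 0.47. As a group, the 7 detected HSP70 genes had a median range of 0.47, against 0.41 over all 7950 detected genes. Without normalisation between arrays the median of the 7 was 0.72.

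Both measured HSP90 genes were detected, with the arrays close together after normalisation between arrays. Hsp90aa1, the inducible cytosolic form that holds kinases and steroid receptors ready, was at 8.61, 8.85 and 8.73, a mean of 8.73 ± 0.12 (SD, n = 3). Hsp90b1 (GRP94, which folds secreted and membrane proteins in the ER) was at 11.41, 11.27 and 11.12, a mean of 11.27 ± 0.14 (SD, n = 3). The median range of the pair was 0.26, or 0.53 without normalisation between arrays.

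The small heat shock proteins held the only detected member with a range over 1 log2 unit, that is over 2-fold between arrays. Hspb1 (HSP25, an actin-associated holdase) was at 10.26, 9.37 and 8.63, a mean of 9.42 ± 0.82 (SD, n = 3). Its unprocessed intensity was 1511, 689 and 386, and its range of 1.63 corresponds to 3.09-fold. All 3 arrays lay well apart, with replicate 1 the highest and replicate 3 the lowest. Over all detected genes, 804 of 7950 (10.1%) had a range over 1, against 1 of the 50 chaperone genes. Hspb1 rests on 1 probe, and leaving out replicate 1 or replicate 3 brought its range to 0.73 or 0.90, under 1.

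The other detected small heat shock proteins ran the opposite way. Hspb8 (HSP22, the partner of BAG3 in the autophagy of misfolded clients) was at 10.12, 10.72 and 10.93, a mean of 10.59 ± 0.42 (SD, n = 3). Its second probe, at 7.37, 8.07 and 8.31, had the same order. Hspb6 (HSP20, best known from muscle) was at 10.66, 11.02 and 11.16, a mean of 10.95 ± 0.26 (SD, n = 3), the narrowest range of the group at 0.50. Both were lowest on replicate 1, the array on which Hspb1 was highest, with and without normalisation between arrays, though without it the range of Hspb6 was 0.12 and that of Hspb8 0.36. Fibroblast and epithelial markers also differed between these arrays. Dcn, Pdgfra and all 3 epithelial markers were highest on replicate 1, while Thy1, Vim and Fbln2 were lowest there. Of the 13 fibroblast markers detected on every array, 6 were highest and 5 lowest on replicate 1. The part of such cells in the small heat shock protein values was not tested. The median range of the 3 detected small heat shock protein genes was 0.80, or 0.36 without normalisation between arrays.

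The mitochondrial chaperonin genes did not vary alike. Hspd1 (HSP60, the ring that folds matrix proteins) was at 10.68, 11.15 and 11.28, a mean of 11.04 ± 0.32 (SD, n = 3). Hspe1 (HSP10, the lid of the ring) was at 8.88, 8.84 and 9.04, a mean of 8.92 ± 0.11 (SD, n = 3). The printed bases lie between the starts of the 2 genes. The second Hspd1 probe ranged further than the one used, at 8.16, 8.79 and 9.86. Both Hspd1 probes were lowest on replicate 1 and highest on replicate 3 after normalisation between arrays. Without it, the Hspd1 probe used was at 10.89, 11.12 and 11.10, a range of 0.23. Hspe1 was then at 9.15, 8.78 and 8.80, a range of 0.36, so which gene had the wider range depends on that step. RefSeq lists 5 Hspd1 and 6 Hspe1 pseudogenes, and how far their transcripts or genomic copies add to these probes is uncertain.

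The cytosolic chaperonin (TRiC, the double ring that folds actin and tubulin) had 6 of its genes measured and 5 detected, and all 5 were lowest on replicate 1, against 43.4% of all detected genes. Tcp1 was at 11.74, 12.07 and 11.97. Cct3 was at 11.86, 12.12 and 12.47, and its second probe had a range of 0.75. The remaining subunits kept the same low point by smaller or similar amounts. Cct6a was at 12.27, 12.55 and 12.78. Cct4, at 12.24, 12.27 and 12.34, had the narrowest range of the group (0.10). Cct8 was at 10.79, 10.96 and 10.96. Their median deviations from each gene's own mean were -0.18, 0.02 and 0.06 in the same order, against medians within 0.01 of 0 on every array over all detected genes. The sixth gene, Cct2, went the other way: it was highest on replicate 1, at 5.86, 5.23 and 5.60, and was left out of the 5 because it was not above background on replicate 2. The second Tcp1 probe also went the other way, at 7.50, 7.01 and 7.06. Without normalisation between arrays, 2 of the 5 were lowest on replicate 1, against 16.1% of all detected genes, so the count depends on that step. Replicate 1 is also the array on which the epithelial markers and Dcn were highest. Fibroblast markers as a set were mixed there: of the 13 detected on every array, 6 were highest and 5 lowest on replicate 1. The part of such cells in these values was not tested.

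**Figure D3:**
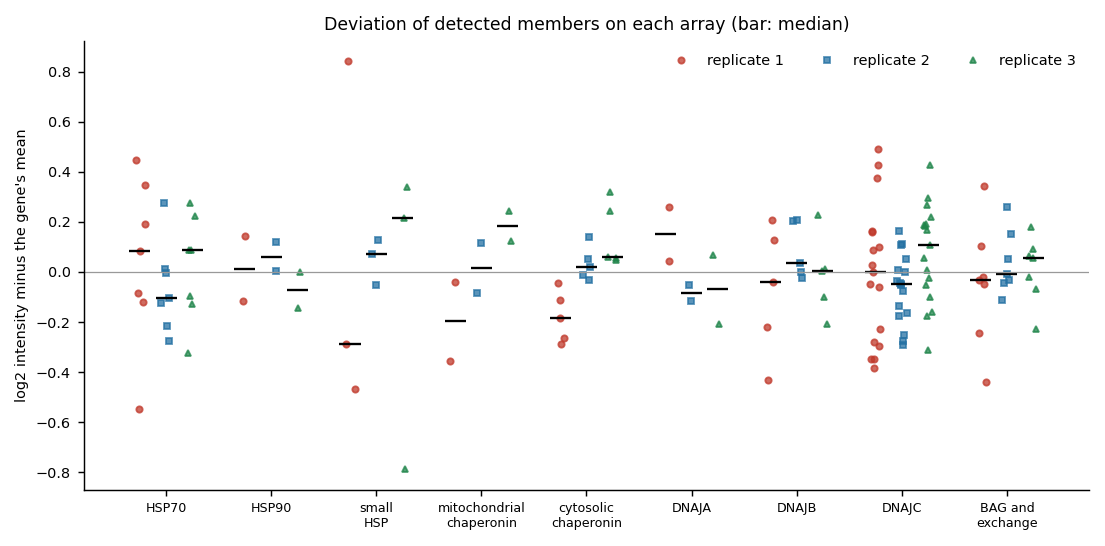
Deviation of each detected gene from its own mean over the 3 arrays (vertical axis, log2 units), by role group and replicate, with a black bar at each median. All 5 cytosolic and both mitochondrial chaperonin genes lie below 0 on replicate 1, and Hspb1 is the highest point on replicate 1 and the lowest on replicate 3.

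Among the J-domain co-chaperones of the DNAJA and DNAJB classes, the main cytosolic HSP40 had the narrowest range of the 50 after normalisation between arrays. Dnajb1, the stress-inducible J protein that drives HSP70 disaggregation, was at 11.06, 11.14 and 11.11, a mean of 11.10 ± 0.04 (SD, n = 3) and a range of 0.07, against 0.35 without that step. Dnaja2, its constitutive cytosolic counterpart, was at 7.72, 7.56 and 7.74. Dnaja3 (TID1, in the mitochondrial matrix) had a range of 0.47 and was highest on replicate 1. Dnajb6, which blocks the aggregation of polyglutamine proteins, had 4 detected probes with ranges between 0.18 and 0.43. Dnajb2, which hands ubiquitylated clients to the proteasome, had a range of 0.66 and was lowest on replicate 1. In the ER, Dnajb9 (ERdj4, a BiP co-chaperone induced by unfolded proteins) was at 6.85, 6.65 and 6.44, and Dnajb12, an ER membrane J protein in protein degradation, had a range of 0.23. All 5 measured DNAJB genes were detected, with a median range of 0.41.

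The DNAJC class was the most numerous, with 17 of 21 genes detected and a median range of 0.45. Of these 17, 10 were highest on replicate 3, against 28.6% of all detected genes. Without normalisation between arrays the count was 2, against 4.79%. The ER members included Dnajc3 (P58IPK, a BiP co-chaperone of the unfolded protein response) at 7.95, 8.35 and 8.40, Dnajc10 (ERdj5, a disulphide reductase) with a range of 0.49, Dnajc16 with 0.68 and Dnajc25 with 0.32. Dnajc3 and Dnajc10 were lowest on replicate 1, while Dnajc16 and Dnajc25 were highest there. At the mitochondrion, Dnajc15 and Dnajc19, J proteins of the inner membrane import motor, had ranges of 0.11 and 0.16. Dnajc15, at 9.41, 9.36 and 9.46, had the narrowest range of the class. Dnajc11, tied to the cristae junction complex, had a range of 0.45, Dnajc4 of 0.32 and Dnajc30, which associates with ATP synthase, of 0.80. Dnajc30 was highest on replicate 1 and Dnajc11 on replicate 3.

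The remaining DNAJC genes act in many places, and their ranges ran between 0.14 and 0.81. Dnajc2 (ZRF1), which sits on ribosomes and also binds ubiquitylated histone H2A, had a range of 0.64 and was lowest on replicate 1. Dnajc5 (cysteine string protein, on synaptic vesicles) had a range of 0.53, with its low point on the same array. Dnajc12, a co-chaperone of aromatic amino acid hydroxylases, had a range of 0.65 with its high point there. Dnajc8 and Dnajc17, both linked to splicing, had ranges of 0.14 and 0.56. Dnajc7, which binds HSP70 and HSP90 together, had one of 0.32, and Dnajc24, needed to make diphthamide on elongation factor 2, of 0.18. Dnajc27, a small GTPase with a J domain, had the widest range of the class at 0.81, but it lay near background, with a detection p of 0.00321 on replicate 1.

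Among the BAG genes, Hspbp1 and Hspbap1, 7 of 8 were detected, with a median range of 0.17, or 0.41 without normalisation between arrays. Bag1, which couples HSP70 to the proteasome, was at 12.88, 12.96 and 12.89, a mean of 12.91 ± 0.04 (SD, n = 3). Bag3, the HSF1-induced factor that works with HSPB8 in autophagy, was at 10.38, 10.77 and 10.71, a mean of 10.62 ± 0.21 (SD, n = 3). It was lowest on replicate 1, or on replicate 3 without normalisation between arrays. Bag5, which has several BAG domains, had a range of 0.70 and was lowest on replicate 1. Bag6, which sorts tail-anchored membrane proteins, had a range of 0.57 and was highest on replicate 1. Bag4 (silencer of death domains), Hspbap1 and the exchange factor Hspbp1 had ranges of 0.17, 0.10 and 0.11.

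The 10 genes that failed detection on at least 1 array were spread over the roles, and their levels are only upper bounds where background is not exceeded. Bag2, an inhibitor of the ubiquitin ligase CHIP, was above background on no array, with detection p of 0.0566, 0.0812 and 0.191. Dnajc9, a J protein that also chaperones histones H3 and H4, had detection p of 0.015, 0.0684 and 0.078, and Hspb2, a muscle small heat shock protein, of 0.165, 0.0459 and 0.0299. These 3 were the only ones absent from the detected set on every array. Dnaja1, the major inducible DNAJA protein, passed on replicate 3 alone, with 0.0395, 0.1 and 0.00641. The other 6 passed on 2 arrays and missed on 1. Cct2 had detection p of 0, 0.016 and 0.00641, and Hspa12b, a distant HSP70 of endothelial cells, 0, 0.00534 and 0.015. Dnajc1 (ERdj1, which binds BiP at the ribosome) had 0.0118, 0 and 0, and Dnajc18 had 0.0118, 0.00962 and 0.00641. Dnajc28 had 0, 0.00427 and 0.0374, with log2 values of 6.45, 5.61 and 5.16. Hspa4l, an HSP110-class gene best known from testis in the mouse, had 0.509, 0 and 0.00107, with log2 values of 4.46, 5.82 and 5.95, so replicate 1 was at background while the others were above it.

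Over all 50 detected genes, the spread between replicates was close to that of all detected genes in its median. The median range was 0.42 log2 units, against 0.41 over all detected genes, and the median SD was 0.213 against 0.214 (n = 3 arrays). Of the 50, 31 had a range under 0.5, and up to about that value the cumulative curves of the 50 and of all detected genes lie close together. By array, 26 were lowest and 18 highest on replicate 1, against 43.4% and 43.3% of all detected genes. On replicate 2, 12 were lowest and 8 highest, against 26.0% and 28.1%. On replicate 3, 12 were lowest and 24 highest, against 30.6% and 28.6%. The median deviation of the 50 was -0.04, -0.01 and 0.06 on the 3 arrays.

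**Figure D4:**
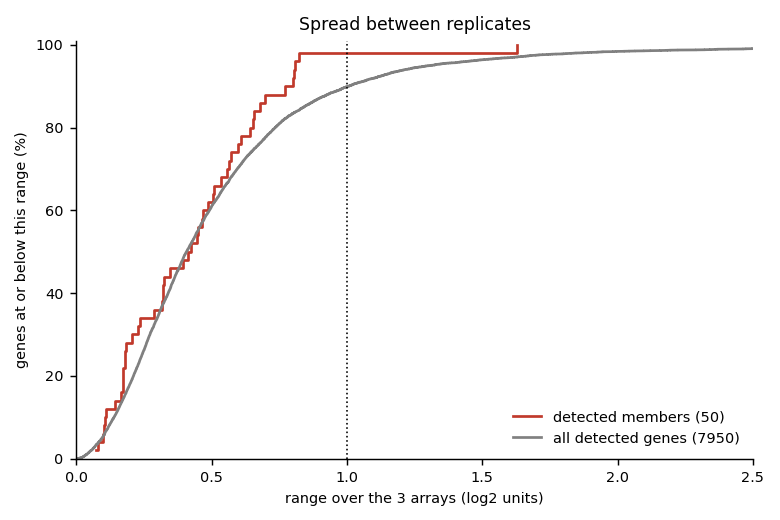
Cumulative share (vertical axis, percent) of genes at or below each range over the 3 arrays (horizontal axis, log2 units), for the 50 detected chaperone genes (red) and all 7950 detected genes (grey); the dotted line marks a range of 1. The curves lie close together up to about 0.5, and past 1 the red curve holds Hspb1 alone, while 10.1% of all detected genes lie there.

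Agreement between probes bears on how far single genes can be read. Of the 60 genes, 17 had several probes and 15 had several detected ones. None of these 15 had detected probes whose deviations differed by over 1 on any array. The largest gap was 0.68 for Hspd1 on replicate 3, followed by 0.49 for Tcp1 and 0.47 for Hspa8, both on replicate 1, and the smallest was 0.05 for Hspa2.

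**Figure D5:**
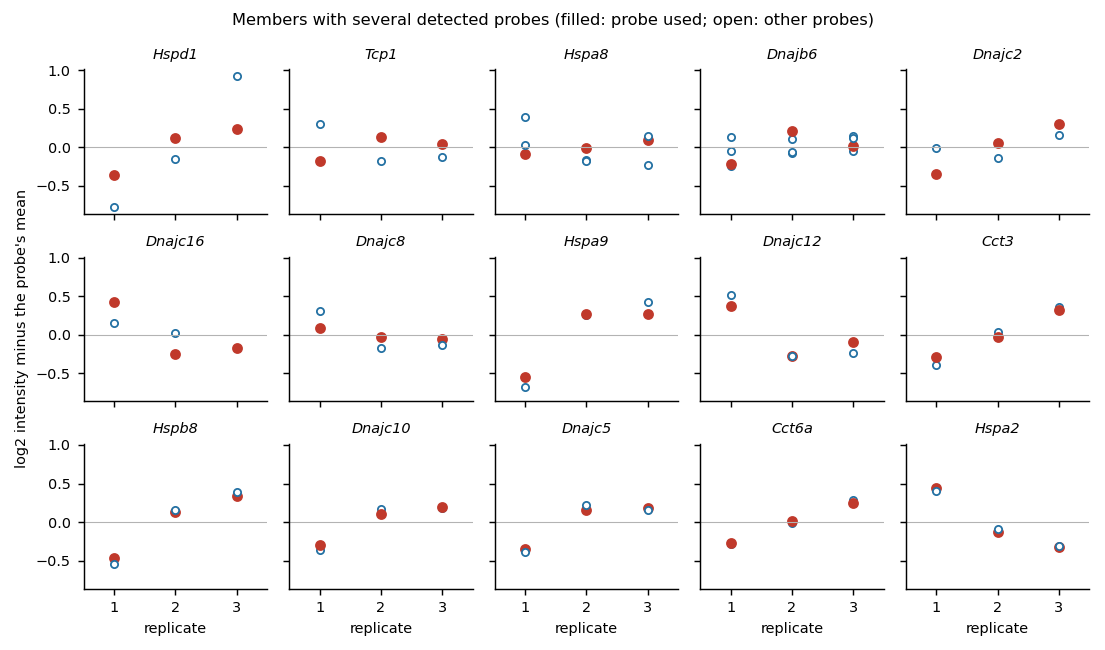
Deviation from the probe's own mean (vertical axis, log2 units) by replicate (horizontal axis) for the 15 genes with several detected probes, ordered by the largest gap between probes. Filled red points are the probe used and open blue points the others; Hspd1 (gap of 0.68) and Tcp1 (0.49) differ most, and the probes of Hspa2 (0.05) nearly coincide.

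Grouped by lists of compartment genes, 7 of 9 measured genes of the ER list and all 8 of the mitochondrial list were detected, with median ranges of 0.41 and 0.39. The mitochondrial list leaves out Dnajc30, which was detected with a range of 0.80. Of the 12 textbook HSF1 targets, 11 were detected, the exception being Dnaja1, with a median range of 0.35. By promoter, the 13 detected genes with a 2-unit element had a median range of 0.50, and the 27 detected genes whose promoter held none had one of 0.32. Without normalisation between arrays this order was reversed, with medians of 0.36 and 0.51, so it depends on that step. No test was made of these differences.

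Genes that work beside these chaperones were read from a list of 35 regulators, HSP90 co-chaperones, mitochondrial and ER exchange factors and prefoldin subunits, of which 28 had a named probe and 27 were detected on all 3 arrays. Their median range was 0.36. Hsf2, a heat shock factor active in development, was at 5.92, 6.33 and 6.09, and Hsbp1, which binds HSF1, at 10.05, 9.89 and 9.68. Stip1 (HOP, the bridge between HSP70 and HSP90) was at 11.39, 11.06 and 11.39, and Ahsa1, which activates the HSP90 ATPase, at 9.13, 9.35 and 9.49. The single partner gene with a range over 1 was Sil1, the exchange factor of BiP, at 6.30, 7.44 and 7.28, a range of 1.13. Grpel2, an exchange factor of mitochondrial HSP70, was above background on replicate 3 alone, with detection p of 0.0331, 0.0107 and 0.00534. Hsf1 itself was among the genes of the list with no named probe used here, as were Hsf4, Sugt1, Pfdn1, Pfdn6 and Txndc9.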

How the data were processed

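Total RNA of the 3 replicates was labelled with biotin and hybridised to Illumina BeadArrays. Per the file headers, the deposited unprocessed table holds each probe's intensity (linear, not background-subtracted) and its detection p-value. The table the authors processed holds log2 values of 17754 of 45281 probes; its columns are equal after sorting to within 0.00036, as after quantile normalisation. Per the submitters' processing notes the authors used limma, with a version, bead software and probe filter not given in the sources used here. Of the 17754 probes, 15045 had 1 gene, 5 several and 2704 none; all 60 members matched RefSeq by Entrez identifier.

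Values were computed from the unprocessed intensities with neqc (limma 3.58.1, R 4.3.3; offset 16, normexp with detection p-values, quantile normalisation, log2), over all probes. Detection meant p under 0.01 on all 3 arrays and a wide range over 1 log2 unit. Steps were tested on simulated data. Python 3.11.15, pandas 2.3.3 and numpy 2.4.6 were used. Members, gene lists and motifs were chosen with earlier results of these data known. Array values are given for main representatives of each role, wide or narrowest genes and those not detected on all arrays; those of Hspb6, the cytosolic chaperonin subunits and second probes were added after values were seen. The number of arrays limits the precision. Alternatives were other detection thresholds, normalisations, probe rules, the authors' processed values and each replicate left out.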

Additional observations from a re-analysis of the deposited data

How the results depend on the processing

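Detection of the 60 genes held under every setting tried: 50 in the main setting, 48 to 57 with a threshold of 0.05 or 0.001, with 1 detecting array taken as enough, with other probe rules or with current symbols, and 51 to 53 with a replicate left out; partner genes stayed between 24 and 28. The count of detected genes with a range over 1 depended more on the choices. It was 1 in the main setting (10.1% of all detected genes), with quantile normalisation alone (5.90%) and with the processed values of the authors (5.77%). It was 2 with the mean of a gene's probes (adding Hspd1, at 1.15, against 8.93%). With no filter on dim probes it was 3 (adding Dnajc28 and Hspa4l, against 12.4%). At a 1.5-fold threshold it was 13, with no share of all detected genes counted for comparison. With a replicate left out it was 0 to 1. It was 0 without replicate 1 (against 0.456% of all detected genes) and 0 without replicate 3 (against 7.83%). The range of Hspb1 was 0.734 and 0.895 in these settings. Without replicate 2 the count was 1 (against 8.25%). Without normalisation between arrays the count was 6 (Bag6, Dnajc12, Dnajc16, Dnajc30, Hspa2 and Hspb1), against 18.1% of all detected genes. That setting also moved the array counts: 34 of 50 genes were highest and 12 lowest on replicate 1 (71.8% and 16.1% of all detected genes), 7 lowest on replicate 2 (14.4%), and 5 highest and 31 lowest on replicate 3 (4.79% and 69.5%). The median deviations became 0.197 on replicate 1 and -0.167 on replicate 3, where the medians of all detected genes were 0.26 and -0.22. Of the 5 detected cytosolic chaperonin genes, 2 were then lowest on replicate 1. The count was 4 of 5 with the mean of probes, 5 of 6 with no filter on dim probes or without replicate 2, where Cct2 enters, and 5 of 5 otherwise. Of the 17 DNAJC genes, 2 were highest on replicate 3 without normalisation between arrays. These counts, and counting every promoter window on its own (28.3% against 31.2%), were alternatives chosen after seeing the data. Ranges of the detected main representatives, wide genes and narrowest genes of each role were followed under the alternatives. Of these values, 165 stayed on their side of 1 and 3 did not, those of Hspb1 and Hspd1 above. Other genes named in the text were not in that count. Among them, Bag6, Dnajc12, Dnajc16, Dnajc30 and Hspa2 passed 1 without normalisation between arrays. Genes near background, among them Hspa1b and Dnajc27, are limited by signal over the control beads.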
